A study of Mus musculus with 12 samples.

Results

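The response of *Elk4* knockout mast cells to IgE and antigen was measured in 4 of the 12 RNA-seq libraries of the series, chosen by their labels: 2 libraries of unstimulated and 2 of stimulated bone marrow-derived mast cells (BMMCs) labelled knockout (KO). BMMCs are mast cells grown from mouse bone marrow, here for 4 to 8 weeks in IL-3 and SCF, after which over 80% of cells carried both CD117 and the IgE receptor FcϵRI. The mice were conventional *Elk4* knockouts (not confined to a cell type) on a C57BL/6N background. They were 6 to 12 weeks old and of both sexes. Wild-type (WT) littermates and mice labelled heterozygous (HZ) gave the other 8 libraries, 4 for each genotype. Stimulated cells had bound anti-DNP IgE (0.5 µg/ml) overnight and received DNP-HSA (100 ng/ml), the antigen of that IgE, for 1 h. The unstimulated cells are labelled untreated, and whether they were given IgE without antigen is not stated. The sources do not say how many mice or cultures stand behind a library, so each SE and p-value below measures the spread between libraries, which may be technical.

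When antigen crosslinks IgE on a mast cell, FcϵRI signals through the kinases Lyn and Syk to calcium, MAP kinases and NF-kappa B. Granules with histamine and proteases are released within minutes, and newly made lipid mediators, chemokines and cytokines follow. The first genes to be transcribed are immediate-early genes, many of which hold serum response elements at their promoters. These elements bind serum response factor (SRF) together with a ternary complex factor, and ELK4 is such a factor, beside ELK1 and ELK3.

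*Elk4* itself had 2613 and 2253 counts in the unstimulated and 1867 and 1971 in the stimulated libraries labelled KO, against 2426 and 2740 in unstimulated WT and 3238 and 2837 in unstimulated HZ libraries. A count summed over the gene cannot show a deletion inside it, so *Elk4* reads do not check the genotype, and KO below stands for the label. The log2 difference of unstimulated KO from WT was -0.19 ± 0.059 (SE; adjusted p = 0.00872, edgeR quasi-likelihood test), and after stimulation *Elk4* differed from unstimulated KO cells by 0.03 ± 0.061. Summed levels in CPM (counts scaled to the TMM-adjusted library size) of 11 mast cell markers lay between 56410 and 57453 in the unstimulated and between 57039 and 57579 in the stimulated KO libraries. Summed levels of 6 neutrophil markers, 4 lymphocyte markers and 4 dendritic cell markers were at most 0.169 CPM in each KO library, and 10 macrophage and monocyte markers summed to 6.24 to 9.28 CPM, with 4 of the 10 at 0 throughout. Other sets were not near 0. The 5 basophil markers summed to 470 to 473 CPM at rest and to 513 to 521 CPM after antigen. The 9 megakaryocyte and erythroid markers summed to 2064 to 2070 CPM at rest and to 2130 to 2131 CPM after antigen. Which cells gave these reads was not tested. The 3 eosinophil markers listed summed to at most 0.160 CPM at rest and to between 1.98 and 2.22 CPM after antigen, through *Siglecf* (5 and 3 and then 55 and 64 counts). Library totals were 33994669 and 32248976 counts in unstimulated and 30846198 and 31922912 in stimulated KO cells. In bulk RNA, fewer cells of a type and less RNA per cell cannot be told apart.

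Within 1 h, antigen raised cytokine, chemokine and immediate-early genes in the KO-labelled cells, and lowered a set of mostly weakly expressed genes, many of them zinc finger genes. Of 12208 genes tested, antigen raised 455 (3.73%) and lowered 352 (2.88%) in KO libraries, at an adjusted p under 0.05 and a change of at least 2-fold (edgeR). Without the fold threshold the counts were 2485 higher (20.4%) and 2498 lower (20.5%). The rises were larger than the falls. Their median log2 fold change was 2.25, or 2.18 with each gene of at most 3 counts in every unstimulated library set against 3 counts per library. Without that bound, 81 genes rose by more than 5 on the log2 scale. Of the 455, 60 had at most 3 counts in every unstimulated library, 29 of them none, and their log2 values depend on the prior count. The falls had a median of -1.51, and 265 of the 352 lay between -1 and -2. Among genes that rose, the median level over the 4 libraries was 26.1 CPM, close to the 25.3 of all genes tested, and 152 reached a mean of 100 CPM. Among genes that fell, the median level was 3.54 CPM, and 2 reached 100 CPM. All but 1 of the 455 had both stimulated libraries above both unstimulated ones, as had 33.4% of all genes tested, and all 352 had them below, as had 35.0%.

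**Figure D1:**
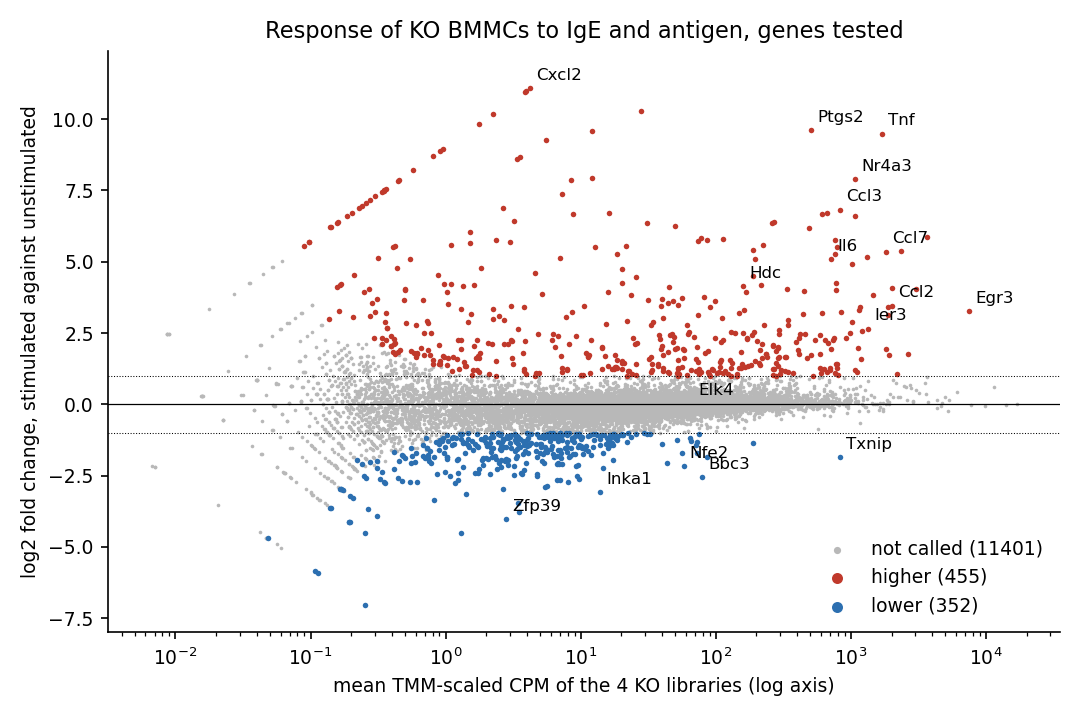
Mean level over the 4 KO libraries (TMM-scaled CPM, log axis) against the log2 fold change of stimulated over unstimulated cells, 1 point a gene, with the 455 higher genes in red, the 352 lower genes in blue, the others in grey and dotted lines at 2-fold. Rises reach the most abundant genes, among them *Egr3* and *Ccl2*, while falls gather at low levels; points on the upper left diagonal are genes without a count in unstimulated cells, whose fold change depends on the prior count.

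The risen genes took a large part of the messenger RNA. They held 3.36% and 3.37% of all counts in the unstimulated and 16.0% of counts in each stimulated library. TMM factors, which set the scale of each library, were 1.10 in both unstimulated and 0.902 in both stimulated KO libraries. With library totals in place of TMM, the median log2 fold change of all genes moved from -0.01 to -0.30, and the calls became 354 higher and 721 lower, which is 32.9% higher in place of 56.4%. Changes below are relative to the TMM scaling, under which the median gene moved by -0.01.

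The AP-1 and ATF factors are leucine zipper proteins that pair to bind DNA, and 8 of 13 tested rose and none fell. *Fos* had 253 and 209 counts in the unstimulated and 14356 and 14716 in the stimulated libraries, a log2 fold change of 6.34 ± 0.051 (SE). *Atf3*, a repressor of inflammatory genes, went from 1394 and 1451 to 41481 and 42936 counts (5.26 ± 0.04), and *Junb* from 7336 and 6617 to 76809 and 77665 (3.84 ± 0.029). For each of the 3, the groups lay far apart in comparison with the spread between libraries. *Fosb* had 13915 and 13807 counts at rest and 93975 and 95785 after antigen (3.14 ± 0.026). The median over the 13 was 2.57, against -0.01 over all genes tested.

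Of 25 EGR, NR4A and other immediate-early genes, 18 rose and *Klf10* fell. EGR proteins are zinc finger factors and NR4A proteins orphan nuclear receptors, both induced within minutes of calcium and MAP kinase signals. *Nr4a3* had 332 and 314 counts before and 59011 and 61360 after antigen (7.91 ± 0.038), the largest rise of the group. *Nr4a1* rose from 4525 and 4455 to 200945 and 208332 (5.88 ± 0.026) and *Nr4a2* by 6.70 ± 0.041. The EGR genes were already transcribed at rest. *Egr3* had 53764 and 49654 counts in unstimulated libraries and 381659 and 390549 in stimulated ones (3.27 ± 0.019). *Egr1* went from 13482 and 12133 to 159814 and 165384 (4.03 ± 0.024), *Egr2* changed by 5.15 ± 0.032 and *Egr4* by 5.56 ± 0.13. *Csrnp1* (4.94 ± 0.033) and the antiproliferative gene *Btg2* (5.71 ± 0.092) rose with them. *Klf10*, a TGF-beta-inducible repressor, fell from 4092 and 3971 to 930 and 1001 counts (-1.70 ± 0.064). The median of the 25 genes was 2.29, and with library totals in place of TMM 14 were higher and 2 lower.

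The ternary complex factors and their partners did not follow this pattern. None of the 8 genes tested rose, and only *Mrtfa*, an actin-regulated SRF coactivator, fell past the thresholds, from 3813 and 3543 to 1415 and 1359 counts (-1.04 ± 0.053; adjusted p = 6.41e-22, edgeR). Leaving out stimulated replicate 2 put its log2 fold change at -0.99, under the 2-fold threshold. *Elk1* differed by 0.30 ± 0.084, *Elk3* by -0.03 ± 0.078 and *Srf* by 0.24 ± 0.047 between the conditions. The sign of *Srf* and *Elk4* turned under library totals, to -0.053 and -0.26. Of 68 genes tested from the study's list of ternary complex factor targets, which comes from fibroblasts, 12 were higher and 2 lower, with a median of 0.09, against 11 and 1 in WT and 13 and 1 in HZ cells. Over all genes tested, 3.71% were higher and 3.06% lower in WT and 7.02% higher and 7.28% lower in HZ cells. The 12 included *Ptgs2*, *Fos*, *Nr4a1*, *Egr2*, *Egr1*, *Junb* and *Zfp36*, which encodes a protein that destabilises cytokine messenger RNAs. Of 18 SRF-bound cytoskeletal genes, 2 rose. The larger rise was that of *Ccn1*, a secreted matrix protein, from 2 and 4 to 377 and 435 counts (7.38 ± 0.29). *Filip1l* fell (-1.22 ± 0.23), and without stimulated replicate 1 its -0.96 missed the fold threshold.

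**Figure D2:**
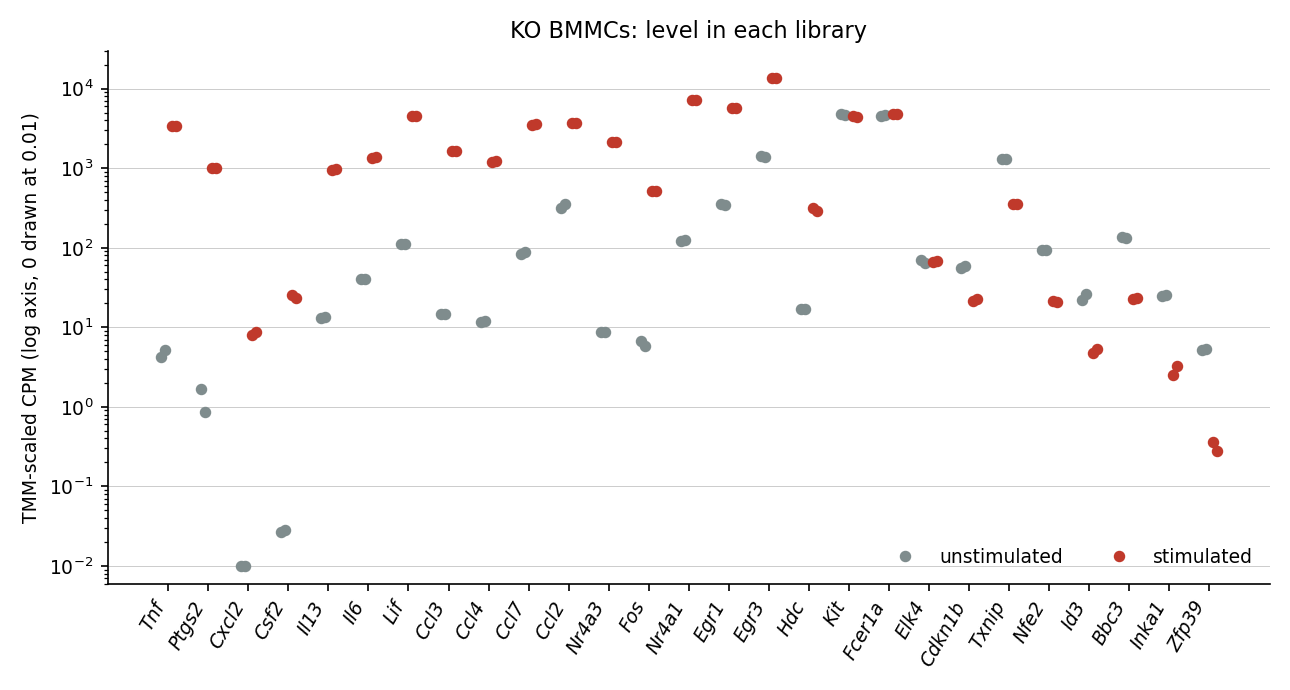
TMM-scaled CPM (log axis) of 27 named genes in each of the 4 KO libraries, unstimulated in grey and stimulated in red, 1 point a library, with 0 drawn at 0.01. Mediator and immediate-early genes rise, *Kit*, *Fcer1a* and *Elk4* differ little, and a group of genes led by *Zfp39* falls.

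Every interleukin or haematopoietic cytokine gene that passed the filter rose, 13 of 13, while 10 further genes of that list stayed below the filter on low counts and were not tested. The filter took in all 12 libraries, so members with almost no resting reads could pass it only through stimulated cells. In KO cells 4 of the 13 had at most 3 counts in each unstimulated library. The share of 13 of 13 is thus partly set by the filter, and the same holds for such members of other lists. *Il31*, a cytokine that evokes itch, had 0 and 0 counts in unstimulated and 225 and 218 in stimulated libraries, at least 95.2-fold higher. *Il3*, a mast cell growth factor that was also present in the medium as protein, went from 0 and 0 to 98 and 157, at least 54.6-fold. These bounds set 3 counts per unstimulated library as the floor, and they cover counting error only. *Csf2* (GM-CSF) had 1 and 1 and then 701 and 668 counts, a ratio of 883 with an exact 95% interval of 244 to 7295 from counting error. The type 2 cytokine *Il13* rose from 488 and 476 to 26650 and 27856 counts (6.19 ± 0.049; adjusted p = 2.70e-56, edgeR). *Il6* rose from 1502 and 1457 to 37871 and 40115 (5.09 ± 0.035). The levels reached after antigen differed widely between these genes. Per length, in FPKM (fragments divided by transcript length and library size), *Il6* reached a mean of 1089 FPKM and *Il13* 720.0, while *Il31* reached 5.70 and *Csf2* 17.0. FPKM carry no TMM scaling, so changes read from FPKM here and below differ from the log2 fold changes given with them. *Lif*, a gp130 cytokine, had 4170 and 3942 counts at rest and 128018 and 132124 after antigen (5.37 ± 0.025). *Csf1*, the macrophage growth factor, had 8231 and 7998 at rest, then 104923 and 109595 (4.09 ± 0.025). The median log2 fold change of the 13 was 5.09, or 4.26 with 4 members at their bound.

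Of 20 TNF family ligands and growth factors, 16 rose and none fell. *Tnf*, the cytokine that mast cells both store and make anew, went from 160 and 183 counts to 93566 and 98800. Its log2 fold change was 9.50 ± 0.047 (adjusted p = 2.06e-64, edgeR). *Tnf* went from 3.14 to 1854 FPKM, among the 6 most abundant risen genes. *Areg*, an EGF receptor ligand, had 1 and 0 at rest, then 165 and 239 counts, a ratio of 521 with an exact 95% interval of 93.0 to 20625. *Hbegf*, of the same ligand family, rose by 5.82 ± 0.081. The unstimulated libraries held almost no reads of *Areg*, so its fold is known far less well than that of *Tnf*.

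Chemokines draw other leukocytes to the site of degranulation, and 9 of the 14 tested rose while none fell. *Cxcl2*, a neutrophil attractant, had 0 and 0 counts at rest and 225 and 253 after antigen, at least 103-fold higher. *Ccl3* and *Ccl4*, which attract monocytes and T cells, moved alike. *Ccl3* rose from 544 and 515 to 45930 and 47364 counts (6.83 ± 0.038) and *Ccl4* from 439 and 423 to 33432 and 35338 (6.68 ± 0.051). The monocyte attractants *Ccl2* and *Ccl7* were the most abundant of all risen genes by FPKM. *Ccl2* went from 11948 and 12535 to 102372 and 106990 counts (3.46 ± 0.03), or 459 to 4138 FPKM. *Ccl7* went from 3124 and 3155 to 96654 and 103366 (5.36 ± 0.035), or 118 to 3977 FPKM. *Ccl1*, the ligand of CCR8, had 25 and 29 at rest, then 1638 and 1815 counts (6.36 ± 0.14). *Cxcl10* had 1 and 1 counts at rest and 17 and 12 after antigen, and it was the 1 interferon-stimulated gene of 15 to rise. *Oasl2* fell, from 40 and 78 to 16 and 8 counts (-1.93 ± 0.54), a call lost without stimulated replicate 2, at -1.50, or unstimulated replicate 2, at -1.32, and 13 did not pass. The median of the 14 chemokines was 4.41, or 3.22 with 4 members at their bound.

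The promoters of 4 risen genes are shown because each holds a site that carries the NF-kappa B consensus, in capitals, within 250 bases before the RefSeq start (sequence and coordinates of RefSeq, build GRCm38.p6, plus strand in each case). The pool was the risen genes named by size, by difference from WT, by abundance or as measured by the study. From it, the largest fold changes were taken whose promoter could be shown and held such a site or an SRF CArG box. Genes named only as list members, such as *Fos* and *Nr4a1*, were not in this pool. The windows are *Cxcl2* at chr5:90903649-90903898, *Ramp3* at chr11:6658283-6658532, *Il6* at chr5:30012864-30013113 and *Ier3* at chr17:35821463-35821712. In *Cxcl2* the consensus matched at 2 overlapping positions, and none of the 4 windows held a CArG box.
Cxcl2: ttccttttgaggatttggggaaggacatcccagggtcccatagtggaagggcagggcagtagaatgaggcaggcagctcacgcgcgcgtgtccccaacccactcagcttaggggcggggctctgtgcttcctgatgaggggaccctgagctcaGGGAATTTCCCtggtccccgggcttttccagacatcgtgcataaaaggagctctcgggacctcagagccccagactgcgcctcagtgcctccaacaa
Ramp3: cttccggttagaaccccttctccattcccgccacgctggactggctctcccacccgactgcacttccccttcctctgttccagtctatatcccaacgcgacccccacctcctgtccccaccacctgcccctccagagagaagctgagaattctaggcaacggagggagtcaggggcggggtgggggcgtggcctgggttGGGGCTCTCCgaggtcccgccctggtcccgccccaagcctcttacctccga
Il6: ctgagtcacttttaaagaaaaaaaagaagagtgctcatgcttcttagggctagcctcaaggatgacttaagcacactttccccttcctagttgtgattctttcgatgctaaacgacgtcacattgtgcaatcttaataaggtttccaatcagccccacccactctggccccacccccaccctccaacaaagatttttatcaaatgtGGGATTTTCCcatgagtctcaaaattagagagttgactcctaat
Ier3: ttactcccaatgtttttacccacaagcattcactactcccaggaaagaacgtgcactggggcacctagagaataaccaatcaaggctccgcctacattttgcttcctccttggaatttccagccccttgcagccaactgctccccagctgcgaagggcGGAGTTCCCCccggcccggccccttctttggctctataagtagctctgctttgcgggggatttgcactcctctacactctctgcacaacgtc

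Motifs were counted on both strands in the 300 bases from 250 before to 50 after each RefSeq start, for 464 promoters of 356 of the 455 risen genes, 355 promoters of 285 of the 352 fallen genes and 12526 promoters of 9828 of all genes tested. The AP-1 site TGANTCA lay in 11.0% of promoters of risen genes, 3.38% of fallen genes and 5.07% of all genes tested. The CArG box lay in 2.16%, 1.97% and 1.24%. The ETS site CCGGAAGT, which ternary complex factors read as ETS proteins, lay in 3.23%, 6.20% and 8.05%. NF-kappa B consensus sites lay in 14.2%, 10.1% and 10.3%, the EGR site GCGNGGGCG in 11.0%, 9.01% and 10.2%, and the CRE TGACGTCA in 3.88%, 1.69% and 2.99%. These shares describe letters in a short window and were not tested.

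Of 11 genes of prostaglandin and leukotriene synthesis, *Ptgs2* (COX-2), the inducible enzyme of prostaglandin synthesis, rose from 63 and 31 to 28353 and 29306 counts (9.62 ± 0.086; adjusted p = 6.15e-54, edgeR), and the other 10 did not pass both thresholds, though without the fold threshold 7 of the 11 were higher and 1 lower. The 2 unstimulated libraries differed from each other for *Ptgs2*, at 1.68 and 0.874 CPM. *Hdc*, the enzyme that makes histamine, rose from 635 and 606 to 8779 and 8360 counts (4.15 ± 0.049), or 7.08 to 103 FPKM. It was the 1 gene of 19 for granule proteases, histamine and serotonin to pass both thresholds, and without the fold threshold 12 of the 19 were higher and 1 lower. None of 25 genes of the exocytosis machinery passed both thresholds, with a median of 0.01. Over all genes tested, 3.73% were higher and 2.88% lower. Without the fold threshold 5 of the 25 (20%) were higher and 3 (12%) lower, against 20.4% and 20.5% over all genes tested. In that list *Syngr1* had 1862 and 1736 at rest, then 1410 and 1394 counts (0.01 ± 0.078), *Exoc3l* changed by -0.11 ± 0.13, *Cadm1* by -0.08 ± 0.058 and *Vcl* by 0.14 ± 0.035.

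Neither *Fcer1a* nor *Kit* passed both thresholds. *Fcer1a*, the IgE-binding chain, had 170067 and 167229 at rest, then 133161 and 137110 counts (0.05 ± 0.02), and *Kit*, the SCF receptor, had 178912 and 167254 at rest, then 126006 and 128573 (-0.08 ± 0.019). Of 32 genes of the receptor and its proximal signalling, 2 (6.25%) rose and none fell, against 3.73% and 2.88% of all genes tested. Without the fold threshold 17 (53.1%) were higher and 6 (18.8%) lower, against 20.4% and 20.5% over all genes tested. Of the 2 that rose, *Sphk1*, which makes sphingosine-1-phosphate, went from 1 and 2 to 150 and 149 counts (ratio 128.5 with an exact 95% interval of 43.55 to 627). Among 28 cytokine, chemokine and complement receptors, 9 rose. The atypical chemokine receptor *Ccrl2* rose from 190 and 151 to 1578 and 1752 counts (3.65 ± 0.11) and the endotoxin co-receptor *Cd14* from 28 and 10 to 107 and 145 (3.09 ± 0.40). *Cd14* is also a monocyte gene, and the summed macrophage and monocyte markers lay at 6.24 to 6.74 CPM before and 6.83 to 9.28 CPM after antigen. The part of such cells in its rise was not tested.

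**Figure D3:**
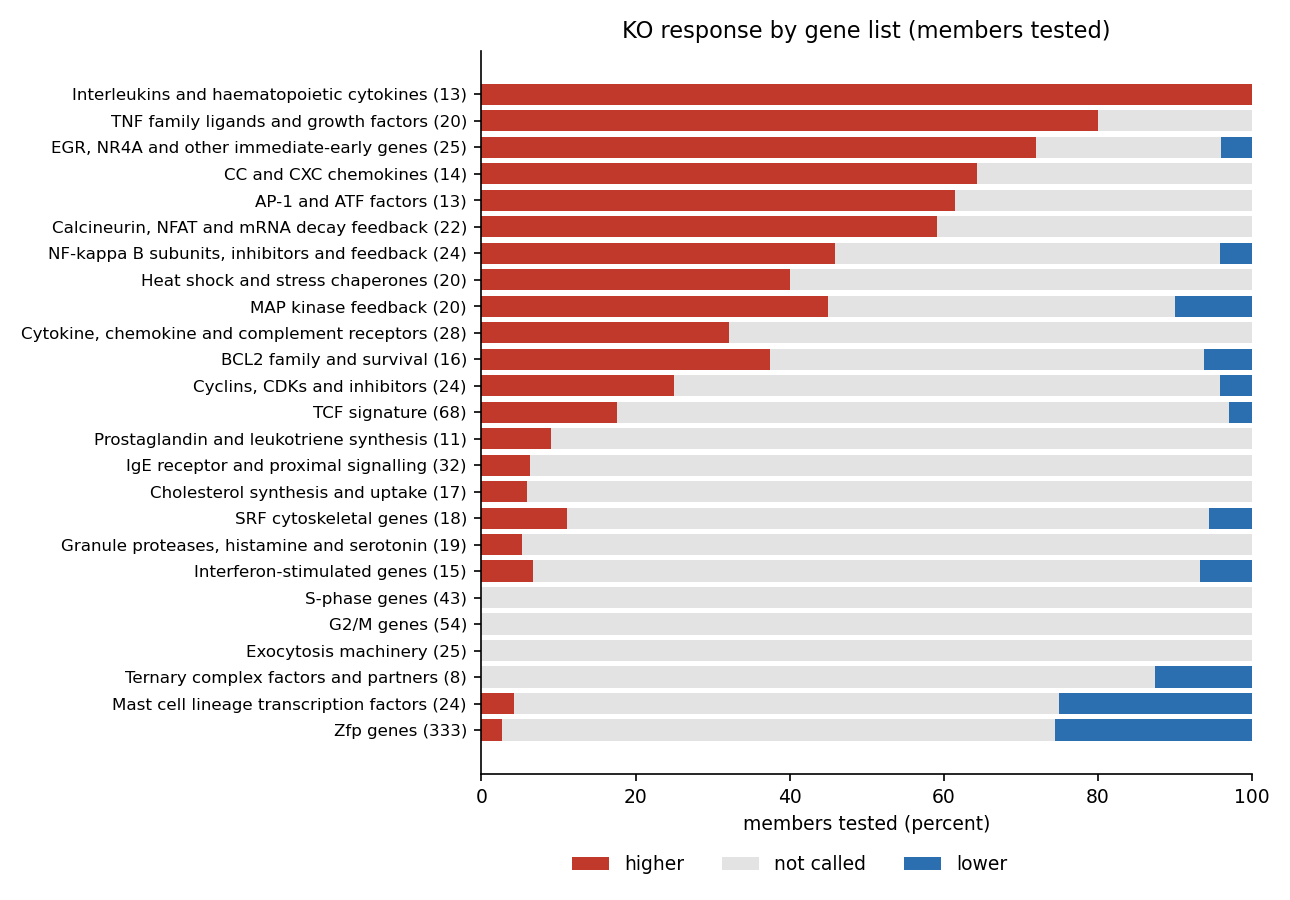
Share of tested members (percent) of each gene list that were higher (red), lower (blue) or not called (grey) in stimulated against unstimulated KO libraries, with the number of members tested in brackets. All 13 interleukins and haematopoietic cytokines that passed the filter on low counts were higher, a share partly set by that filter. No gene of the exocytosis, S-phase or G2/M lists was called, and 85 of 333 *Zfp* genes were lower. Over all genes tested, 3.73% were higher and 2.88% lower.

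Several genes that restrain signalling rose. DUSP phosphatases and Sprouty proteins dampen MAP kinases, and of 20 genes of this group 9 rose and 2 fell. *Dusp1* rose from 246 and 214 to 14531 and 15400 counts (6.39 ± 0.057), *Spry1* from 8 and 14 to 938 and 874 (6.71 ± 0.21) and *Dusp5* from 734 and 645 to 3011 and 2945 (2.48 ± 0.06). The members that fell were *Dusp10* (-1.89 ± 0.20) and *Dusp7* (-1.52 ± 0.14), so the family did not move as a whole. Of 24 NF-kappa B subunits, inhibitors and feedback genes, 11 rose and 1 fell. *Nfkbia*, the inhibitor IkappaB-alpha, went from 280 and 233 to 2203 and 2421 counts (3.54 ± 0.092), and its nuclear relatives *Nfkbiz* (5.53 ± 0.034) and *Nfkbid* (6.60 ± 0.04) rose more. *Tnfaip3*, the deubiquitinase A20, had 3674 and 3443 at rest, then 6959 and 7125 counts (1.35 ± 0.05). *Bcl3* had 32 and 37 at rest, then 8 and 5 (-2.02 ± 0.66; adjusted p = 0.0109, edgeR), a fall at low counts that was lost on leaving out stimulated replicate 2, at -1.71, or unstimulated replicate 2, at -1.87. Of 22 calcineurin, NFAT and mRNA decay genes, 13 rose and none fell. They included the calcineurin inhibitor *Rcan1* (5.76 ± 0.034), the cytokine signalling inhibitor *Socs3* (3.48 ± 0.079) and *Zfp36*, from 569 and 511 to 5081 and 5177 counts (3.61 ± 0.058).

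BCL2 family and survival genes moved in both directions, with 6 of 16 higher and 1 lower. *Bbc3* (PUMA), a trigger of apoptosis, fell from 5065 and 4769 to 625 and 674 counts (-2.55 ± 0.059; adjusted p = 3.50e-36, edgeR). *Bcl2l11* (BIM), another trigger of apoptosis, rose from 643 and 604 to 2253 and 2193 (2.20 ± 0.072), as did the survival kinase *Pim3* (2.17 ± 0.05). Members with like functions thus changed in opposite directions. Among 20 heat shock and stress genes 8 rose and none fell, led by the chaperone *Hspa1a*, from 61 and 45 to 1077 and 1138 counts (4.75 ± 0.13). *Hspa1a* and *Hspa1b* are near-identical copies, so the reads of each are uncertain.

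None of 43 S-phase genes and none of 54 G2/M genes passed both thresholds, against 3.73% higher and 2.88% lower over all genes tested. Without the fold threshold 14 S-phase genes (32.6%) were lower and 5 (11.6%) higher, and 28 G2/M genes (51.9%) were lower and 5 (9.26%) higher. Over all genes tested, 20.5% were lower and 20.4% higher without the fold threshold. *Ccna2*, cyclin A2, had 1284 and 1166 at rest, then 769 and 813 counts (-0.26 ± 0.066; adjusted p = 9.18e-04, edgeR), and *Ccnb2*, cyclin B2, had 383 and 416 at rest, then 220 and 230 (-0.46 ± 0.11; adjusted p = 7.94e-04, edgeR). Both falls were under 2-fold. *E2f2* changed by -0.42 ± 0.15, *Cdk6* by -0.09 ± 0.034 and *Cdk2* by -0.02 ± 0.06. Among 24 cyclins, CDKs and their regulators 6 were higher and 1 lower. The CDK inhibitors moved apart: *Cdkn1a* (p21) rose from 22190 and 21099 to 50078 and 51810 counts (1.60 ± 0.025), and *Cdkn1b* (p27) fell from 2108 and 2098 to 589 and 646 (-1.40 ± 0.07). The groups did not overlap for either gene.

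The response of these genes differed between cells labelled HZ and KO. In WT cells 1 of the 43 S-phase genes and none of the 54 G2/M genes rose, with medians of -0.06 and -0.34, and none passed the interaction test between KO and WT. In HZ cells 26 of the 43 S-phase genes and 12 of the 54 G2/M genes rose, against 7.02% of all genes tested, with medians of 1.11 and 0.69. The test of the difference itself gave a smaller response in KO than in HZ cells for 29 of 43 and 27 of 54. Over all genes tested, the response was larger in KO than in HZ cells for 284 (2.33%) and smaller for 452 (3.70%). *Ccna2* had 1054 and 1006 counts in unstimulated and 2094 and 1849 in stimulated HZ libraries, and its response in KO differed from that in HZ by -1.32 ± 0.09 (adjusted p = 6.12e-17, edgeR interaction).

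Of 24 transcription factors of the mast cell lineage, 6 fell and 1 rose. *Nfe2*, an erythroid and megakaryocytic leucine zipper factor, fell from 3529 and 3363 to 596 and 596 counts (-2.16 ± 0.067). *Id3*, an inhibitor of E proteins, fell from 833 and 929 to 134 and 154 (-2.25 ± 0.14) and the repressor *Gfi1* from 797 and 792 to 247 and 294 (-1.19 ± 0.11). *Id1* had 35 and 21 at rest, then 5 and 2 counts (-2.59 ± 0.88; adjusted p = 0.0139, edgeR) and *Cebpa* 35 and 31 at rest, then 6 and 6 (-2.07 ± 0.72; adjusted p = 0.0163, edgeR). These last falls rest on few reads: that of *Cebpa* was lost on leaving out any KO library, at -2.12 to -2.02, and that of *Id1* without stimulated replicate 2, at -2.07, or unstimulated replicate 1, at -2.22. *Cebpb*, an activator of cytokine genes, rose from 2135 and 2044 to 8086 and 7971 (2.31 ± 0.045).

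The falls of the response were led by zinc finger genes. Genes named *Zfp* made up 2.73% of the genes tested and 24.1% of those that fell, 85 of 352, and 9 of the 333 tested rose. Their median log2 fold change was -0.49 (-0.78 with library totals), and their median level over the 4 libraries was 7.40 CPM. *Zfp39* had 194 and 191 counts in unstimulated and 10 and 8 in stimulated libraries, the largest fall among the genes named by size (-4.04 ± 0.37). *Zfp763* went from 218 and 239 to 16 and 16 (-3.46 ± 0.32), *Zfp870* from 181 and 163 to 13 and 21 (-2.96 ± 0.32) and *Zfp760* from 371 and 352 to 33 and 44 (-2.86 ± 0.20). *Zfp553* (-2.66 ± 0.19), *Zfp87* (-2.64 ± 0.21) and *Zkscan14* (-2.71 ± 0.18) are also of this kind, so 7 of the 10 falls named by size are of zinc finger genes. Many such genes lie in clusters of similar sequence, and how reads shared between copies were counted is not given in the sources used here. The 9 that rose include *Zfp36*, whose protein binds RNA. *Zfp* genes fell in the other genotypes too, 91 among the 373 genes that fell in WT and 112 among the 889 that fell in HZ cells. Over all genes tested, 3.06% fell in WT and 7.28% in HZ cells, against 2.88% in KO cells. Of the 333, the log2 response was lower in KO than in WT for 2 and higher for 1. *Zfp105* was among the 2, with -1.91 ± 0.34 in KO and 0.21 ± 0.29 in WT cells.

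The other large falls were of *Otud1*, a deubiquitinase, from 258 and 219 to 22 and 5 counts (-3.76 ± 0.34), *Inka1*, a PAK inhibitor, from 920 and 893 to 70 and 95 (-3.09 ± 0.14), and *Frat2*, a GSK-3-binding protein, from 367 and 332 to 39 and 33 (-2.91 ± 0.22). The most abundant gene to fall was *Txnip*, an inhibitor of thioredoxin and of glucose uptake, from 48302 and 46054 to 10020 and 10320 counts (-1.85 ± 0.028), or 509 to 116 FPKM. It was followed by *Rsrp1* (-1.37 ± 0.036), *AI467606* (-1.83 ± 0.057) and *Uck1* (-1.18 ± 0.067). At the other end, *Mst1r*, the receptor RON, had 0 and 3 counts at rest and 1548 and 1635 after antigen, a ratio of 1368 with an exact 95% interval of 468 to 6637. *Rasl11b*, a small GTPase, had 0 and 0 at rest, then 227 and 207 (at least 93.3-fold higher) and the WNT receptor *Fzd9* 0 and 0 at rest, then 101 and 100 (at least 43.2-fold higher). *Ier3*, an early gene that limits cell death, rose from 13638 and 13253 to 64295 and 66519 counts (2.65 ± 0.025).

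Most genes that rose or fell in KO cells did so in WT cells. Of the 455 genes that rose in KO cells, 356 also rose in WT cells, which is 78.2% of the KO list and 78.6% of the 453 of WT, and 349 in HZ cells, 76.7% of the KO list and 40.7% of the 857 of HZ. Of the 352 that fell, 212 fell in WT cells (60.2% of the KO list, 56.8% of 373) and 252 in HZ cells (71.6% of the KO list, 28.3% of 889). Of the 99 genes called higher in KO and not in WT cells, 84 had the same sign in WT, and for 8 the response itself differed by the interaction test, which shares the KO libraries with that selection. Over all genes tested the response was larger in KO than in WT cells for 60 (0.491%) and smaller, that is lower on the log2 scale, for 26 (0.213%).

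**Figure D4:**
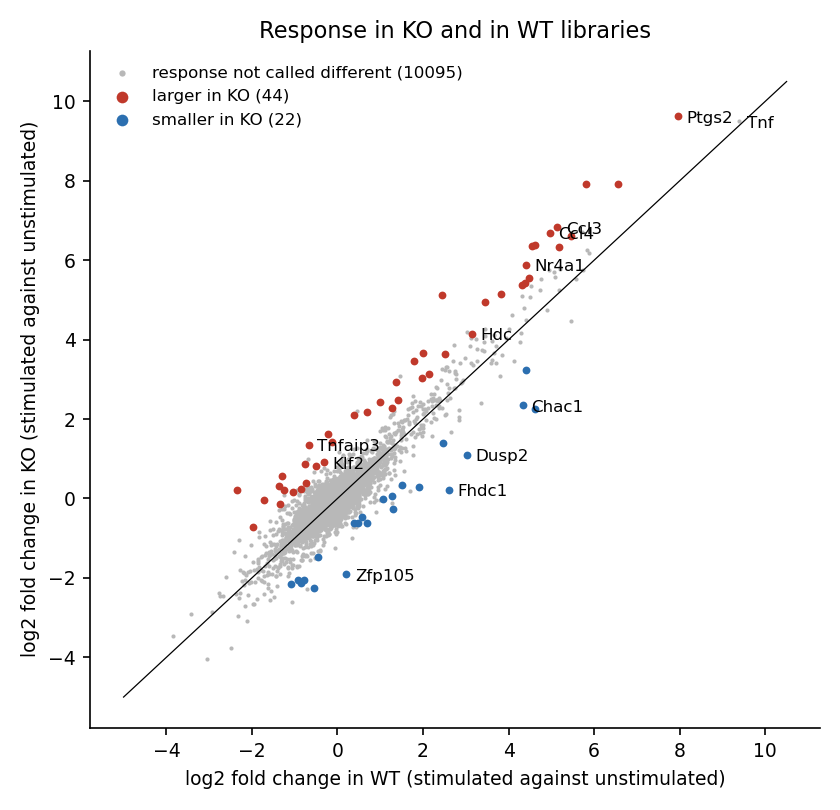
Log2 fold change of stimulated over unstimulated cells in WT (horizontal) and KO (vertical) libraries for 10161 genes with a group mean of at least 100 counts and more than 3 in each group, with the line of equal response. Of the genes drawn, the log2 response was higher in KO for 44 (red) and lower for 22 (blue). The blue genes include some that fell more in KO, such as *Zfp105*. *Tnf* lies on the line and *Ccl3*, *Ccl4*, *Hdc* and *Nr4a1* lie above it.

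*Ccl3*, *Ccl4* and *Hdc* had a larger response and a lower resting level in KO than in WT cells. The comparisons at rest, after antigen and of the response share libraries, so their values are set side by side. *Ccl3* stood at 14.5 ± 0.00509 CPM (SD, n = 2) in unstimulated KO and 90.8 ± 0.264 in unstimulated WT cells, and at 1648 ± 3.57 and 3209 ± 75.5 after antigen. Its log2 difference of KO from WT was -2.65 ± 0.041 at rest and -0.96 ± 0.026 after antigen, so that the response was larger by 1.68 ± 0.049 (adjusted p = 2.35e-30, edgeR interaction) while the level after antigen was lower. *Ccl4* followed the same order, with -2.75 ± 0.056 at rest, -1.02 ± 0.034 after antigen and 1.73 ± 0.067 for the response. *Hdc* stood at 17.0 ± 0.103 CPM in unstimulated KO and 126 ± 6.65 in unstimulated WT cells, and at 303 ± 17.7 and 1111 ± 6.74 after antigen. Its response was larger by 1.02 ± 0.064, close to the 2-fold threshold, which it missed without stimulated KO replicate 1 or unstimulated WT replicate 1 (0.96 at the lowest), and its level after antigen differed by -1.87 ± 0.036. In HZ cells *Hdc* rose by 2.00 ± 0.039, *Ccl3* by 7.24 ± 0.039 and *Ccl4* by 7.17 ± 0.052. The rises of *Ccl3* and *Ccl4* in WT cells were 5.14 ± 0.032 and 4.96 ± 0.042. Resting HZ levels were 13.0 ± 0.811 CPM for *Ccl3*, 9.91 ± 2.41 for *Ccl4* and 109 ± 7.09 for *Hdc*. The low resting level of *Ccl3* and *Ccl4* was thus shared by HZ and KO cells, and that of *Hdc* was not.

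For *Nr4a1*, *Csrnp1*, *Nr4a3* and *Fos* the KO and WT levels lay closer after antigen than at rest. *Nr4a1* was at 123 ± 3.45 CPM in unstimulated KO and 324 ± 1.1 in unstimulated WT cells, and at 7229.6 ± 11.7 and 6863 ± 109 after antigen, a response larger by 1.47 ± 0.031. *Csrnp1* (-1.42 ± 0.032 at rest, 0.07 ± 0.026 after antigen), *Nr4a3* (-1.36 ± 0.052 and -0.01 ± 0.024) and *Fos* (-1.24 ± 0.075 and -0.08 ± 0.033) followed it. *Egr2* was lower in KO both at rest (-1.85 ± 0.031) and after antigen (-0.51 ± 0.026). Resting levels in HZ cells were lower still for *Nr4a1*, at 31.6 ± 1.16 CPM, and for *Egr2*, at 21.9 ± 1.49 CPM against 71.4 ± 3.16 in KO. *Tnf* rose by 9.50 ± 0.047 in KO and 9.38 ± 0.046 in WT cells, a difference of 0.11 ± 0.092 (adjusted p = 0.587, edgeR interaction). In HZ cells it rose by 10.79 ± 0.052, and the KO response was smaller than that of HZ, by -1.30 ± 0.11 (adjusted p = 2.07e-13, edgeR interaction).

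For *Dusp1* and *Tnfaip3* the larger response in KO cells lay in the level after antigen. *Dusp1* was at 6.30 ± 0.374 and 8.03 ± 0.247 CPM in unstimulated KO and WT cells and at 529 ± 9.07 and 196 ± 0.0214 after antigen. *Tnfaip3* rose from 97.5 ± 0.666 to 249 ± 1.8 CPM in KO cells and went from 57.6 ± 7.14 to 36.1 ± 2.56 in WT cells, a log2 fold change of -0.67 ± 0.06 that was under 2-fold (adjusted p = 2.65e-13, edgeR). The responses differed by 2.03 ± 0.078. *Klf2*, a factor that restrains inflammatory genes, changed by 0.91 ± 0.044 in KO, -0.32 ± 0.047 in WT and 2.52 ± 0.049 in HZ cells. The genes chosen for the largest differences had few resting reads in KO cells, and all but *Sik1* stood lower at rest than in WT cells. *Ramp3*, a receptor activity-modifying protein, had 0 and 1 at rest, then 319 and 301 counts in KO and 15 and 15 at rest, then 163 and 186 in WT cells. *Spp1* (osteopontin) had 6 and 0 at rest, then 123 and 141 in KO and 108 and 85 at rest, then 224 and 283 in WT, and *Plk2* 0 and 0 at rest, then 49 and 42 in KO and 29 and 32 at rest, then 484 and 467 in WT. For *Spp1*, *Plk2* and *Gzmd* the level after antigen stayed below that of WT. The log2 differences of KO from WT were -0.87 ± 0.24, -3.31 ± 0.24 and -1.06 ± 0.20. The *Spp1* difference ranged from 3.25 without unstimulated KO replicate 2 to 8.63 without unstimulated KO replicate 1. *Plk2*, *Gzmd* and *Htr1b* lost the call on leaving out single libraries, and their difference turned sign in limma on log2(FPKM + 1) without a filter, to -1.58, -0.49 and -0.068. *Gzmd*, *Htr1b* and *Sik1* complete the 6, and the difference of *Sik1* turned from 2.68 to -0.31 without unstimulated WT replicate 2, where the unstimulated WT libraries had 1 and 17 counts.

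The genes with a smaller response in KO than in WT cells, that is lower on the log2 scale, were led by *Fhdc1*, *Sema7a*, *Zfp105*, *Chac1*, *Dusp2* and *Nradd*. Of these, *Zfp105* and *Nradd* fell more in KO cells. *Zfp105* changed by -1.91 ± 0.34 in KO and 0.21 ± 0.29 in WT cells, and *Nradd* by -2.26 ± 0.345 and -0.55 ± 0.32. Between KO and HZ cells the response differed at an adjusted p under 0.05 (edgeR interaction) for *Chac1* (-0.74 ± 0.14) and *Dusp2* (-1.01 ± 0.34). It did not for *Fhdc1* (-0.33 ± 0.30), *Sema7a* (0.39 ± 0.51), *Zfp105* (-0.72 ± 0.47) and *Nradd* (-0.88 ± 0.48). *Chac1*, a glutathione-degrading enzyme of the integrated stress response, had 239 and 341 counts in unstimulated and 1136 and 1150 in stimulated KO libraries, and 287 and 348 at rest, then 5364 and 5829 in WT ones. It rose in both, by 2.34 ± 0.10 in KO and 4.34 ± 0.089 in WT cells, and the difference was -1.99 ± 0.14 (adjusted p = 1.58e-15, edgeR interaction). *Trib3*, a pseudokinase of the same stress response, changed by -0.61 ± 0.063 in KO and 0.47 ± 0.062 in WT cells, a difference of -1.08 ± 0.088. *Dusp2*, a nuclear MAP kinase phosphatase, stood higher at rest in KO cells. It had 132 and 96 counts in unstimulated and 168 and 211 in stimulated KO libraries, against 10 and 27 at rest, then 127 and 137 in WT ones, a difference of -1.92 ± 0.39. Its rise in KO cells (1.10 ± 0.23) missed the fold threshold under library totals, at 0.81, and without stimulated or unstimulated replicate 2, at 0.95 and 0.92. *Fhdc1*, a formin, had 150 and 162 at rest, then 134 and 146 in KO and 18 and 15 at rest, then 84 and 94 in WT. It rose in WT cells (2.62 ± 0.30), while in KO cells, where its resting level was higher, the change was 0.21 ± 0.21 (adjusted p = 0.467, edgeR). HZ cells were like KO cells in this gene, with a change of 0.54 ± 0.21. Resting *Fhdc1* stood at 3.98 ± 0.272 CPM in HZ, 4.28 ± 0.400 in KO and 0.486 ± 0.0810 in WT cells.

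**Figure D5:**
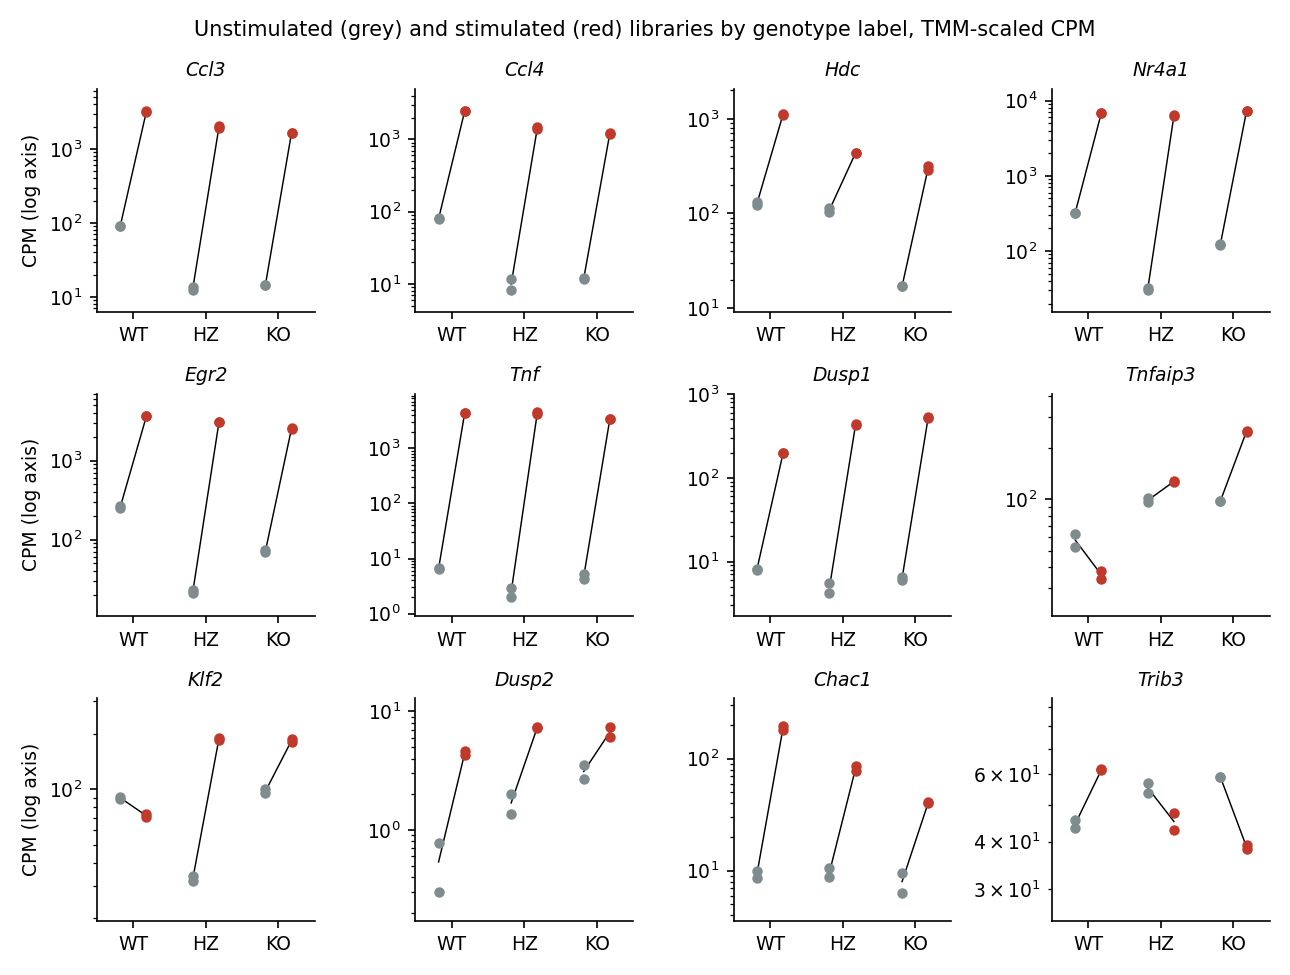
TMM-scaled CPM (log axis) of 12 genes in each unstimulated (grey) and stimulated (red) library labelled WT, HZ or KO, with lines between group means. Resting *Ccl3*, *Ccl4*, *Nr4a1* and *Egr2* lie lower in KO and HZ than in WT libraries. *Hdc* is lower in KO in both states, and *Tnfaip3* goes up in KO and down, by less than 2-fold, in WT.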

How the data were processed

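Reads of 12 libraries (2 per genotype and condition) were processed by the authors, whose processing notes name fastp, HISAT2, HTSeq and build GRCm39. Versions and the strand setting are not given in the sources used here. The authors deposited raw counts per gene, the main values here, and FPKM (fragments divided by transcript length and library size) per gene, used for levels between genes and as an alternative scale. No row of the count table was without a gene. All 12 libraries (29697958 to 35531667 counts) entered one edgeR 4.0.16 fit in R 4.3.3 (filterByExpr, 12208 of 16234 genes tested, TMM, quasi-likelihood F test on 6 group means, prior count 0.125, 6 residual degrees of freedom). Genes were called at a Benjamini-Hochberg adjusted p under 0.05 and at least 2-fold. The biological coefficient of variation was 4.01%. The difference between responses was tested as an interaction. Ratios for genes with 1 to 3 resting reads carry exact intervals, and floors are 3 counts per library. The scripts were tested on simulated counts with known changes. Alternatives were DESeq2 1.42.0, limma 3.58.1 on log2(FPKM + 1), other scalings, filters and priors, a replicate block and leaving out each library. Members and gene lists were chosen with earlier results of these data known. The text names the 10 largest rises and falls among genes without overlap whose higher group averaged 100 counts or more, the 6 largest differences from the WT response in each direction, the 6 most abundant risen and fallen genes, list members and genes the study measured; a few list members are not reported here. Same-numbered libraries did not deviate together (r = -0.02 in KO and 0.06 in HZ over 9858 genes, genes not being independent), so the numbers were not used as pairs.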

Additional observations from a re-analysis of the deposited data

Results flagged for a closer look

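The response to antigen differed between the libraries labelled KO and WT for 34 of the genes named, by the edgeR interaction test at an adjusted p under 0.05 and a log2 difference of at least 1, with 27 larger and 7 smaller in KO. The values in brackets are the log2 response in KO minus that in WT, and the comparisons share the KO libraries of the report. The genes of the difference were named partly for its size, so the values describe them.

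Among transcription factors the responses of *Egr2* (1.34), *Egr4* (1.08), *Nr4a1* (1.47), *Nr4a3* (1.35), *Fos* (1.16), *Fosb* (1.01), *Csrnp1* (1.49) and *Klf2* (1.23) were larger in KO. Among mediators and their enzymes those of *Ccl1* (1.81), *Ccl3* (1.68), *Ccl4* (1.73), *Lif* (1.06), *Spp1* (4.18), *Ptgs2* (1.66) and *Hdc* (1.02) were larger. Feedback genes with a larger response were *Dusp1* (1.78), *Dusp5* (1.07), *Nfkbid* (1.15) and *Tnfaip3* (2.03). Receptors, kinases and others with a larger response were *Plk2* (4.55), *Ccrl2* (1.65), *Ccn1* (1.94), *Ramp3* (5.56), *Gzmd* (3.29), *Sik1* (2.68), *Htr1b* (2.67) and *Siglecf* (2.35). The response was smaller, that is lower on the log2 scale, for *Dusp2* (-1.92), *Chac1* (-1.99), *Trib3* (-1.08), *Fhdc1* (-2.41), *Sema7a* (-2.37), *Zfp105* (-2.12) and *Nradd* (-1.71). The values of *Plk2*, *Ramp3* and *Gzmd* depend on the prior count, since the unstimulated KO libraries held at most 1 read of each.

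Leaving out single libraries ended the call for *Egr4*, *Fosb*, *Hdc*, *Plk2*, *Ccn1*, *Gzmd*, *Sik1*, *Htr1b*, *Sema7a*, *Nradd* and *Siglecf*. Without unstimulated KO replicate 2 the calls of *Egr4*, *Plk2*, *Gzmd*, *Htr1b*, *Nradd* and *Siglecf* were lost, and without unstimulated WT replicate 1 those of *Egr4*, *Fosb*, *Hdc*, *Ccn1*, *Gzmd*, *Htr1b*, *Sema7a* and *Siglecf*. *Egr2*, *Nr4a1*, *Csrnp1*, *Klf2*, *Ccl3*, *Ccl4*, *Dusp1*, *Tnfaip3*, *Chac1* and *Ccrl2* kept the call in all 23 settings run. The call of *Ptgs2* was lost with DESeq2 (adjusted p = 0.0937), in the 3 limma fits on FPKM and in the test against 2-fold, and its difference ranged from 1.05 without unstimulated WT replicate 2 to 2.22 without unstimulated KO replicate 1. That of *Spp1* ranged from 3.25 to 8.63 on leaving out a library and missed the fold threshold in both limma fits on log2(FPKM + 1), at 0.82. Applying the settings to the differences of single genes was chosen after seeing the data.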

How the results depend on the processing

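The counts stand below in the order higher, lower, larger than WT, smaller than WT, larger than HZ and smaller than HZ (455, 352, 60, 26, 284 and 452). With the replicate block they were 451, 352, 61, 26, 284 and 453, and with DESeq2 461, 337, 55, 27, 300 and 432. The block changed no count by over 1.5 times. Limma on log2(FPKM + 1) gave 222, 167, 27, 14, 65 and 217, and without a filter 223, 166, 27, 12, 65 and 217. With 0.1 in place of 1, 262 were higher, 477 lower and 146 larger than HZ. Without the fold threshold the counts were 2485, 2498, 664, 468, 2465 and 2602. A test against 2-fold left 125 lower, 17 larger and 3 smaller than WT, and 46 larger and 103 smaller than HZ. Library totals gave 721 lower, and an adjusted p under 0.01 left 15 smaller than WT. Leaving out 1 library gave 422 to 437, 323 to 335, 47 to 65, 23 to 33, 236 to 279 and 435 to 471. Of 95 called genes named, 78 kept direction and call in each setting. The sign of a small change turned for 7 genes. It became negative under library totals and the 3 limma fits on FPKM for *Elk4* (-0.26, -0.26, -0.24 and -0.24, and -0.040 to 0.094 without single libraries), *Srf* (-0.053, -0.053 and -0.051), *Fcer1a* (-0.24), *Syngr1* (-0.28 and -0.26, and -0.025 to 0.039 without single libraries), *Vcl* (-0.15) and *Fhdc1* (-0.080, -0.070 and -0.034). *Cdk2* lay between -0.12 and 0.080 without single libraries, positive without unstimulated replicate 2. The *Sik1* difference from WT was -0.31 to 3.55 without single libraries, negative without unstimulated WT replicate 2. In limma on log2(FPKM + 1) the difference turned for *Plk2* (-1.58, and -0.90 with 0.1), *Ccn1* (-0.19) and *Gzmd* (-0.49), and without the filter for *Htr1b* (-0.068). The cause was not tested, except that library totals shift all genes, and FPKM are likewise scaled to library size without TMM. Depth limits the fold of the 29 risen genes without a resting read.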
